A study of Mus musculus with 6 samples.

Results

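The noncoding RNA components of 4 ribonucleoproteins (RNase P, RNase MRP, telomerase and Ro) were examined in hypoxic mouse lung with and without endothelial NFAT5. Their members were the probe sets (sets of array probes summarised to 1 value per gene) whose platform gene symbol is Rpph1, Rmrp or Terc, or starts with Rprl or with Rny and a digit. This rule found 6 of the 24704 named genes: Rpph1, Rprl1, Rprl2, Rmrp, Terc and Rny1. They were chosen by their difference between the knockout and control arrays as well as by name, so their values are given as a description, with no test. RefSeq types the same genes as RNase P RNA (3 genes), RNase MRP RNA, telomerase RNA and Y RNA (1 gene each). Its table lists 4 RNase P RNA genes and 2 Y RNA genes, of which Rprl3 and Rny3 were not analysed here.

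Knockout lungs came from Nfat5(EC)-/- mice, in which Nfat5 was ablated in endothelial cells of adults with tamoxifen at 1 mg daily on 5 days. Control lungs came from Nfat5fl/fl mice, which carry the floxed alleles and were given the solvent miglyol. Genotype and tamoxifen therefore cannot be told apart, and the labels used here name no Cre driver. Males and females aged 10 to 12 weeks entered, recovered for 2 to 3 weeks, and were then all kept in hypoxia for 7 days; lungs were perfused with Ringer solution before lysis. The design names 4 mice per group, of which 3 knockout arrays (replicates 1, 3 and 4) and 3 control arrays (also numbered 1, 3 and 4) were analysed here, and preparations holding other tissue or responding poorly to hypoxia had been dropped by the authors. The labels do not say how arrays relate to animals, so p-values measure the spread between these arrays, which may be partly technical. All values are log2 expression after RMA, which fits every array to the same distribution of values, and they have no detection calls. In whole lung, fewer cells of a type and less RNA per cell cannot be told apart.

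RNase P and RNase MRP are ribonucleoproteins that share most of their proteins. RNase P trims the leader from precursor transfer RNA, and RNase MRP cuts precursor ribosomal RNA. Telomerase copies its template RNA onto chromosome ends, and Y RNAs sit in particles with the proteins Ro60 and La. RNA polymerase III makes the RNAs of RNase P and RNase MRP and the Y RNAs from compact promoters that lie outside the gene, whereas telomerase RNA is made by RNA polymerase II and matured like a box H/ACA small nucleolar RNA (snoRNA).

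Of the member genes, Rpph1 and Rmrp lie closest to a coding gene. Rpph1 (chromosome 14, 50807447 to 50807771 in GRCm38.p6) lies 125 bases from Parp2, a poly(ADP-ribose) polymerase of DNA repair. Rmrp (chromosome 4, 43492785 to 43493059) lies 280 bases from Ccdc107, a coiled-coil gene. The RefSeq promoter windows of these coding genes are shown because they span or reach this DNA. Each holds 250 bases before and 50 bases after a transcript start of the coding gene, on the plus strand, at chr14:50807666-50807965 for Parp2 and chr4:43493115-43493414 for Ccdc107. The first 106 bases of the Parp2 window lie inside Rpph1, and the Ccdc107 window begins after a gap of 55 bases from Rmrp. Capitals mark matches, on either strand, to 4 motifs that do not overlap here. These are ATTTGCAT (the octamer bound by POU2F1, a usual element of such polymerase III promoters), the TATA element TATAAA, the CCAAT box and the NFAT core TGGAAA.
Parp2 window: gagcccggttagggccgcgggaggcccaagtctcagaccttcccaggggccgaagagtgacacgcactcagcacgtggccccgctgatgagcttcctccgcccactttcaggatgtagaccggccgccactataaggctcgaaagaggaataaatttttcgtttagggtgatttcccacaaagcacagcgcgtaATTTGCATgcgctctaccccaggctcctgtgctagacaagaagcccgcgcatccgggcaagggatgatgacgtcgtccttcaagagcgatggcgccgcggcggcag
Ccdc107 window: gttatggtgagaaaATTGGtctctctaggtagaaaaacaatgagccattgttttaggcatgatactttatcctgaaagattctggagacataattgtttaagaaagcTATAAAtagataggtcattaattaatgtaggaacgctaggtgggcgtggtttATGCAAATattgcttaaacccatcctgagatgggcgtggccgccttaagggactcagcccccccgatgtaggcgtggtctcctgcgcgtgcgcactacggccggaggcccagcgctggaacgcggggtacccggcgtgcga
The octamer stood 88 bases from the Rpph1 end of the intergenic DNA and 29 bases from Parp2. In the Ccdc107 window its reverse complement stood 214 bases from Rmrp, a TATA element 162 bases and a reversed CCAAT box 69 bases from it. The 55 bases between Rmrp and this window were not searched, and variants of the 4 motifs were not sought in either window. Whether any match serves Rpph1 or Rmrp was not tested. Among 32544 distinct RefSeq windows of this length, 1.75% held the octamer, 13.6% TATAAA, 37.4% CCAAT and 21.5% TGGAAA. The NFAT core was found in neither window, and binding of NFAT5 was not tested. No window overlaps the other 4 member genes, whose sequences are not printed.

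Across all genes, 6292 of 24704 passed the test at an adjusted p under 0.05 (limma, Benjamini-Hochberg), which is 25.5%, with 12.5% higher in the knockout and 13.0% lower. Without control replicate 3 the count was 2882 and without control replicate 1 it was 3141. Arrays correlated across genes at 0.916 to 0.939 within the knockout and at 0.968 to 0.970 within the control. Nfat5 itself had 4.46, 4.48 and 3.89 log2 units in knockout replicates 1, 3 and 4, against 6.65, 6.58 and 6.30 in control replicates 1, 3 and 4 (difference −2.23 ± 0.23, SE; limma adjusted p = 0.0015). All 5 lung markers and all 6 endothelial markers lay above the array median of 2.98 by their group means. Their summed log2 values were 51.4 to 53.5 in knockout lungs and 53.8 to 54.9 in control lungs for the lung list, and 42.2 to 46.5 in knockout lungs and 47.5 to 48.9 in control lungs for the endothelial list. In both lists these sums did not overlap between the groups. Of the lung markers only Cldn18 passed, and it was lower (−1.11, limma adjusted p = 0.021). Its call was lost without control replicate 1 (limma adjusted p = 0.064), 3 (0.081) or 4 (0.063). Ager (0.64), Scgb1a1 (−0.59), Sftpc (−0.44) and Sftpb (−0.28) did not pass. The endothelial markers went both ways: Vwf (1.61) and Cldn5 (0.91) were higher, and Tek (−2.01), Pecam1 (−1.59) and Cdh5 (−1.52) lower. Cldn5 lost its call without control replicate 1 (limma adjusted p = 0.065) or 3 (0.060). Summed values of the brown fat markers (3 of 4 measured) also did not overlap, at 6.17 to 8.75 in the knockout and 9.81 to 11.6 in the control. Of these 3 only Ucp1, the heat-producing uncoupling protein, passed, and it was lower (−2.33, limma adjusted p = 0.0043). Cidea (−0.72) and Elovl3 (−0.04) did not pass. Of the 6 thymus markers 1 was higher and 1 lower (summed log2 values of 15.4 to 16.4 in knockout lungs and 14.3 to 17.1 in control lungs). None of the 4 skeletal muscle markers passed, nor any of the 3 erythroid markers measured (of 5 listed), at summed values of 15.8 to 22.8 in knockout and 11.4 to 24.6 in control lungs for muscle, and of 9.80 to 13.5 in knockout and 9.47 to 12.3 in control lungs for the erythroid list. The part of these tissues in the results below was not tested.

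All 6 member RNAs were higher in the knockout, by a median of 1.82 log2 units over the members, against a median of 0.04 over all genes. For each of the 6, every knockout array lay above every control array, as at 21.9% of all genes. All 6 also passed the genome-wide threshold that 12.5% of genes passed upward, which is what the choice of members brings with it. The differences ran from 0.91 for Terc to 2.88 for Rprl2. With any 1 array left out the median was 1.53 to 2.03; since the groups do not overlap, no sign could turn.

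**Figure D1:**
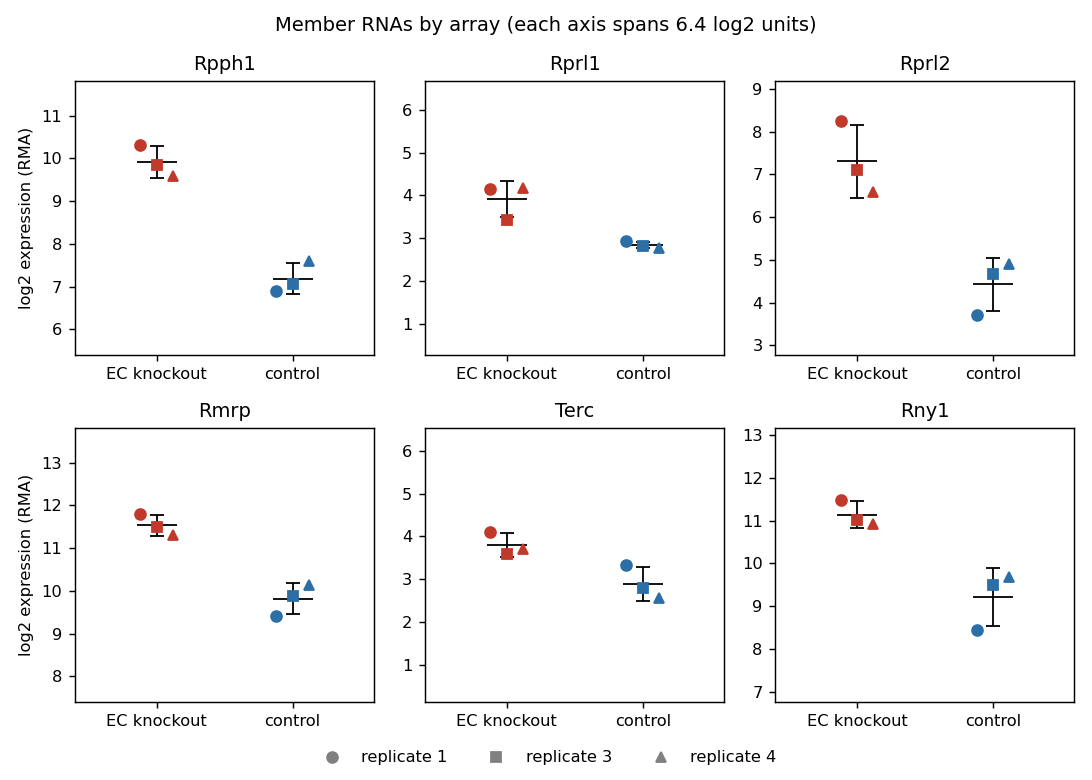
Log2 expression (RMA) of the 6 member RNAs on each array, EC knockout at left and control at right, with the mean and SD of 3 arrays per group as black lines. Each axis spans the same number of log2 units, so that Rpph1 and Rprl2 show the widest gaps (2.73 and 2.88) and Terc the narrowest (0.91), and no group overlaps the other.

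Rpph1, the catalytic RNA of nuclear RNase P, had 10.31, 9.84 and 9.59 log2 units in knockout replicates 1, 3 and 4, against 6.90, 7.05 and 7.61 in control replicates 1, 3 and 4. The lowest knockout array thus exceeded the highest control array by 1.98 log2 units. The group means were 9.91 ± 0.37 in the knockout and 7.19 ± 0.37 in the control (SD, n = 3 each), a difference of 2.73 ± 0.27 (moderated SE), or 6.62-fold. Of all genes, 43 were higher by more.

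Rprl2 and Rprl1 are RNase P RNA-like genes of the mouse. Both span 238 bases, and Rpph1 spans 325. Rprl2 (chromosome 3, 22251370 to 22251607) had 8.25, 7.09 and 6.58 log2 units in knockout replicates 1, 3 and 4, against 3.72, 4.66 and 4.90 in control replicates 1, 3 and 4. Its SD was 0.86 in the knockout, the largest of the 6 there, and 0.62 in the control, where that of Rny1 was larger (0.68). Its difference of 2.88 ± 0.44, or 7.37-fold, had 29 genes above it.

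Rprl1 (chromosome 6, 69326937 to 69327174) lies among immunoglobulin kappa variable segments. It had 4.15, 3.43 and 4.17 log2 units in knockout replicates 1, 3 and 4, against 2.92, 2.82 and 2.78 in control replicates 1, 3 and 4. The control arrays were tight (SD 0.08) and below the array median of 2.98, while knockout replicate 3 stood apart from the other two knockout arrays. The difference was 1.08 ± 0.24, or 2.11-fold. Probe sequences were not used here, so how far probes for 1 RNase P RNA-like gene also catch RNA from another was not tested, and the split of signal among Rpph1, Rprl1 and Rprl2 is uncertain.

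Rmrp, the RNA of RNase MRP and the gene mutated in human cartilage-hair hypoplasia, was near the top of every array. It had 11.79, 11.49 and 11.30 log2 units in knockout replicates 1, 3 and 4, against 9.42, 9.88 and 10.14 in control replicates 1, 3 and 4. Its difference was 1.71 ± 0.24, or 3.28-fold. Between 5 and 9 probe sets were brighter on each knockout array, against 33 to 65 on each control array. Because all arrays share 1 set of values with a maximum of 13.01, differences this close to the top are bounded by the normalization.

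Rny1 (chromosome 6, 47788070 to 47788180) encodes a Y RNA and spans 111 bases. It had 11.49, 11.004 and 10.91 log2 units in knockout replicates 1, 3 and 4, against 8.43, 9.49 and 9.69 in control replicates 1, 3 and 4. Control replicate 1 was lowest by more than a log2 unit. The difference of 1.93 ± 0.33, or 3.81-fold, was 1.55 without that array and 1.55 to 2.18 over all arrays left out in turn. From 7 to 15 probe sets were brighter on the knockout arrays and from 50 to 164 on the control arrays.

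Terc, the telomerase RNA (chromosome 3, 96414437 to 96414833, 397 bases), had the smallest difference of the 6. It had 4.11, 3.58 and 3.71 log2 units in knockout replicates 1, 3 and 4, against 3.33, 2.78 and 2.56 in control replicates 1, 3 and 4. The gap between the lowest knockout array and the highest control array was 0.25 log2 units, less than the range within either group (0.52 in the knockout and 0.77 in the control). Its difference was 0.91 ± 0.25, or 1.88-fold, and 8.88% of genes were higher by more.

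The arrays ranked alike for most members. Knockout replicate 1 was the highest array for 5 of 6 members, all but Rprl1, and averaged 2.29 log2 units above the members' control means, against 1.68 for replicate 3 and 1.65 for replicate 4. Among controls, replicate 1 was lowest for 4 members (Rpph1, Rprl2, Rmrp and Rny1), whereas for Rprl1 and Terc it was the highest control array. The median level of the 99 snoRNAs was also highest on knockout replicate 1 and lowest on control replicate 1, at 7.76, 6.75 and 6.67 on knockout replicates 1, 3 and 4, and at 4.24, 4.63 and 4.41 on control replicates 1, 3 and 4. Its order over control replicates 3 and 4 was the reverse of that of the members' mean deviations (0.05 and 0.22). This snoRNA level did not overlap between the groups, so a fit holding both cannot separate it from the group difference. Entered into the fit beside the groups, it left a median over the members of 0.31, with Rpph1 at 1.27 and Rprl2 at −0.95. The part of RNA preparation in these values was not tested.

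Profiles most like those of the members were sought among all other named genes, as the smallest root mean square distance between centred log2 profiles over the 6 arrays. The group difference was not removed first. Genes with a difference like that of the member therefore lie near by construction, as H4f16 (2.75) does to Rpph1 (2.73). For Rpph1 these were the histone gene H4f16 (0.10), the snoRNA Snord110 (0.13) and the histone gene H2ac20 (0.15). Rprl2 was nearest to the snoRNAs Snord68 (0.19), Snord12 (0.19) and Snord1b (0.20). Rny1 was nearest to the ribosomal protein gene Rps19 (0.16), the histone gene H2bc13 (0.17) and the snoRNA Snord95 (0.21). Rmrp was nearest to Chchd10 (0.08), a mitochondrial coiled-coil-helix gene, then Synpo2l (0.10) and the pseudogene Gm8973 (0.12). The profiles nearest to Rprl1 were Dxo (0.07), an RNA decapping exonuclease, Gm13889 (0.07) and Vps37b (0.08). Terc was nearest to Syt12 (0.10), the long noncoding RNA 4930509E16Rik (0.12) and Creb3l3 (0.13). No member was among the 3 nearest of another by this distance. The closest pair of members was Rmrp with Rny1 (0.22).

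Other RNA polymerase III transcripts on the array were Vaultrc5, n-R5s136 and Rn7sk, and 2 of these 3 rose in the knockout (12.5% of all genes rose). Vaultrc5, the RNA of the vault particle, had 5.49, 4.97 and 5.07 log2 units in knockout replicates 1, 3 and 4, against 2.65, 2.31 and 2.72 in control replicates 1, 3 and 4 (difference 2.62 ± 0.22; limma adjusted p = 0.0011). The 5S ribosomal RNA gene n-R5s136 had 11.30, 10.91 and 11.09 in the knockout, against 7.81, 8.61 and 9.07 in the control (difference 2.60 ± 0.31; limma adjusted p = 0.0019). Neither group overlapped the other for these RNAs, and both calls held with any 1 array left out. Rn7sk, the 7SK RNA that holds back transcription elongation, stood at 12.5 on each knockout array and at 12.1 to 12.2 on control arrays, close to the shared maximum of 13.01 (difference 0.37 ± 0.17; limma adjusted p = 0.16).

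Short and noncoding genes other than the members were counted for comparison. The 99 snoRNAs had a median of 2.21, with 80 higher and 0 lower, and the 8 scaRNAs (guides in Cajal bodies) a median of 1.70, with 5 higher and 0 lower. The 543 microRNA genes had a median of 0.02, with 44 higher and 41 lower. All 881 other genes spanning at most 400 bases had a median of 0.06, with 157 higher and 53 lower, but 99 of these are the snoRNAs, 8 the scaRNAs and 532 microRNA genes. The 242 short genes outside those lists had a median of 0.01, with 12.0% higher and 5.37% lower, against 12.5% and 13.0% over all genes. Of the 4 spliceosomal and U7 snRNA genes 0 passed at limma's adjusted p under 0.05, but 3 of them lay below the lower quartile of the arrays (2.02). Rnu11, the U11 snRNA gene, was the brighter one, at 7.77 ± 0.60 in the knockout and 7.77 ± 0.08 in the control (SD, n = 3 each). These lists were not tested against the members.

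**Figure D2:**
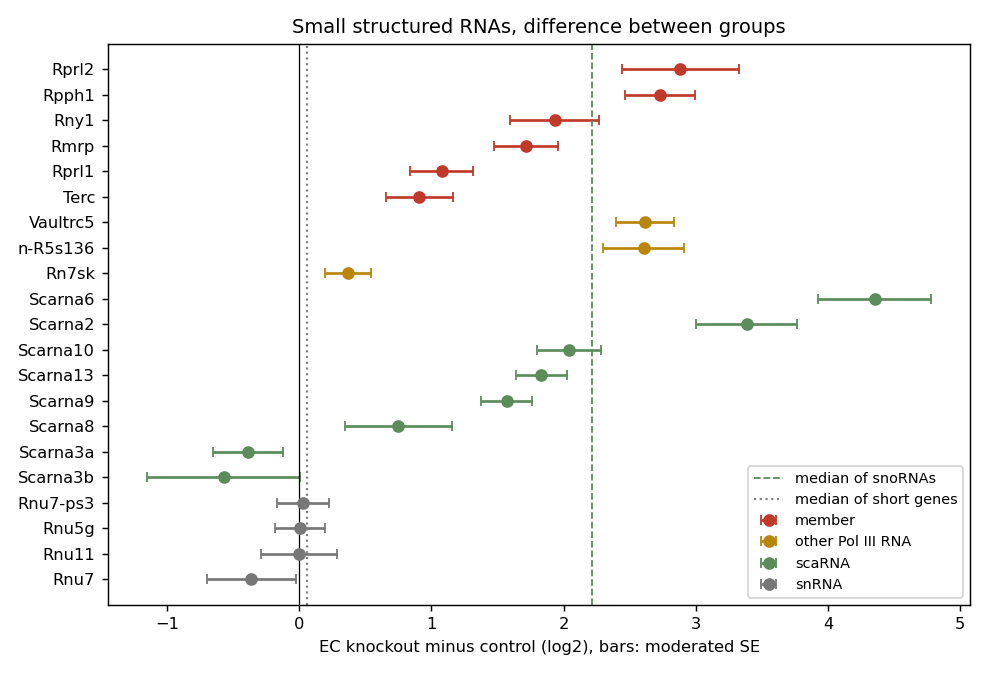
EC knockout minus control (log2) for the member RNAs, other RNA polymerase III transcripts, scaRNAs and snRNAs, with moderated SE as bars and medians of snoRNAs (2.21) and of short genes (0.06) as vertical lines. The members lie between 0.91 and 2.88, Vaultrc5 and n-R5s136 at 2.62 and 2.60, and the snRNAs between −0.36 and 0.03.

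The genes for the proteins of these particles were tested by the same fit. Of 11 protein subunits of RNase P and RNase MRP, 4 rose, 2 fell and 5 did not pass. The median of the 11 was −0.19 (all genes 0.04, 12.5% higher and 13.0% lower). Of those not passing, Pop1, Rpp21, Rpp38 and Rpp40 lay below the array median of 2.98 in both groups by their means. Among genes above the median mean level 7 of the subunits remained and 7 passed, against 5788 of 12352 genes. Pop7, which binds the RNA together with Rpp25, had 4.70, 3.76 and 4.22 log2 units in knockout replicates 1, 3 and 4, against 2.28, 3.24 and 2.67 in control replicates 1, 3 and 4 (difference 1.49 ± 0.31; limma adjusted p = 0.0097). The subunit gene Rpp25l rose by 1.15 ± 0.24 and Pop5 by 0.79 ± 0.19. The other subunit gene that rose, Rpp25, stood at 0.77 and was named after its values were seen. Rpp14 had 2.38, 3.03 and 2.68 in the knockout, against 3.85, 4.08 and 3.77 in the control (difference −1.20 ± 0.22; limma adjusted p = 0.0061). Pop4, also named after its values were seen, stood at −1.66 ± 0.43, with knockout arrays from 3.71 to 5.74 and control arrays from 6.24 to 6.50. Pop1, the largest protein of the complex, was at 2.42 ± 0.44 in the knockout and 2.60 ± 0.34 in the control (SD, n = 3 each) and did not pass.

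The calls in this list were fewer without single control arrays: 2 in number without control replicate 3 and 3 without control replicate 1. Calls over all genes also fell in these fits, to 2882 and 3141 from 6292. Without control replicate 3, limma's adjusted p was 0.054 for Rpp25l and 0.086 for Pop5, and without control replicate 1 it was 0.056 for Pop5. For Pop4 it was 0.069, 0.084 and 0.066 without control replicates 1, 3 and 4. For Rpp25 it was 0.067 without knockout replicate 3 and 0.059, 0.099 and 0.085 without control replicates 1, 3 and 4. Rpp14 and Pop7 passed with any 1 array left out, but Pop7 did not with the level of Xist, which was high on control replicate 1 alone, as a covariate (1.25, limma adjusted p = 0.055). None of the 5 genes of the mitochondrial protein-only RNase P and of transfer RNA 3′ processing passed, and Trmt10c, a subunit of that enzyme, came nearest (−0.78 ± 0.26; limma adjusted p = 0.054, and chosen after its values were seen). The count of that list was 1 without knockout replicate 4.

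Telomerase proteins and assembly factors moved both ways, with 2 of 12 measured genes higher, 3 lower and a median of 0.24. Tert, the reverse transcriptase, had 2.87, 2.14 and 1.95 log2 units in knockout replicates 1, 3 and 4, against 2.16, 2.43 and 1.99 in control replicates 1, 3 and 4. These arrays overlapped (difference 0.12 ± 0.27; limma adjusted p = 0.79) and all lay below the array median. Nhp2, a core protein of H/ACA particles, had 5.55, 5.19 and 5.52 in the knockout, against 4.44, 4.46 and 4.50 in the control (difference 0.95 ± 0.19; limma adjusted p = 0.0081). Ruvbl2, an assembly ATPase, rose by 0.89 ± 0.20. The telomerase partner Nvl stood at −1.33 ± 0.29. Dkc1, dyskerin, the pseudouridine synthase that holds Terc, stood at −0.79 ± 0.19 with 3.21 ± 0.15 in the knockout and 4.00 ± 0.15 in the control (SD, n = 3 each; limma adjusted p = 0.017). The assembly factor Shq1 was the third to fall, at −0.64, and was named after its values were seen. Wrap53, which brings telomerase to Cajal bodies, did not pass (0.61 ± 0.33; limma adjusted p = 0.22).

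Leaving out control replicate 1 or 3 left 2 calls each in this list. Dkc1 then had limma's adjusted p of 0.069 or 0.080, Nvl 0.055 without control replicate 1, and Ruvbl2 0.063 without control replicate 3. Shq1 did not pass in any fit with 1 array left out, at limma's adjusted p from 0.058 to 0.16. Nhp2 passed in every such fit.

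Genes of telomerase RNA maturation and decay were lower at 7 of 12 and higher at 0, with a median of −0.92 (13.0% of all genes were lower). Tgs1, which adds methyl groups to the cap of Terc and of small nuclear RNAs, had 1.76, 3.19 and 2.20 log2 units in knockout replicates 1, 3 and 4, against 5.14, 5.42 and 4.73 in control replicates 1, 3 and 4 (difference −2.71 ± 0.36; limma adjusted p = 0.0023). Xrn1, the 5′ to 3′ exonuclease of the cytoplasm, had 3.35, 3.82 and 3.32 in the knockout, against 5.41, 5.29 and 4.75 in the control (difference −1.66 ± 0.24). Mtrex, the helicase that feeds the nuclear exosome, had 3.35, 4.06 and 3.78 in the knockout, against 5.40, 5.37 and 4.89 in the control (difference −1.49 ± 0.25). The decapping enzyme gene Dcp2 stood at −1.05 ± 0.18. In all 4 the groups did not overlap, and their calls held with any 1 array left out. Parn, the deadenylase that trims the end of Terc, did not pass (−0.48 ± 0.32; limma adjusted p = 0.32). This list was drawn up with the fall of Tgs1 known, so Tgs1 is no independent evidence of its direction.

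Of 10 shelterin and CST genes, whose proteins cover telomeres, 3 rose and 4 fell, with a median of −0.58. Over all genes 12.5% were higher and 13.0% lower. Acd rose by 1.26 ± 0.25 and Ctc1 by 0.95 ± 0.19, while Pot1a stood at −1.15 ± 0.22 and Terf1 at −1.13 ± 0.28. Terf1 lost its call without control replicate 1 (limma adjusted p = 0.078) or 3 (0.076), and the list's count was 4 without control replicate 1, 3 without control replicate 3 and 4 without control replicate 4.

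Proteins that bind Y RNAs had 3 of 11 genes higher and 4 lower, with a median of −0.45 (all genes 12.5% higher and 13.0% lower). Ro60, the ring-shaped protein that holds Y RNA, had 3.90, 3.61 and 3.35 log2 units in knockout replicates 1, 3 and 4, against 4.90, 4.91 and 4.97 in control replicates 1, 3 and 4 (difference −1.31 ± 0.20; limma adjusted p = 0.0033). Its groups did not overlap while Rny1 differed in the other direction. Ssb, the La protein that binds the ends of new polymerase III transcripts, had 4.76, 4.81 and 5.86 in the knockout, against 6.68, 6.34 and 5.72 in the control. Its groups overlapped (difference −1.10 ± 0.35; limma adjusted p = 0.047), and the call was lost without knockout replicate 1 (0.11) or 3 (0.12) and without control replicate 1 (0.17) or 3 (0.14). Nucleolin (Ncl) stood at −1.31 ± 0.22 and Matr3 at −1.27 ± 0.26, while the helicase Mov10 rose by 1.17 ± 0.21. The list's count was 4 without control replicate 1 or 3.

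Of 17 measured RNA polymerase III subunits 0 rose and 2 fell, with a median of 0.00. The share that fell is close to the 13.0% over all genes. Polr3f stood at −1.58 ± 0.20 (limma adjusted p = 0.0022) and Polr3b at −0.92 ± 0.22, with limma's adjusted p of 0.063, 0.065 and 0.055 without control replicates 1, 3 and 4. Of 17 measured initiation factors and regulators 3 rose and 5 fell, with a median of −0.21 (all genes 12.5% higher and 13.0% lower). Within SNAPc, the complex that binds promoters of the Rpph1 and Rmrp kind, the subunits differed. Snapc2 had 5.40, 5.09 and 5.56 log2 units in knockout replicates 1, 3 and 4, against 3.38, 3.37 and 3.73 in control replicates 1, 3 and 4 (difference 1.85 ± 0.21; limma adjusted p = 0.0018). Snapc3 had 3.96, 3.58 and 3.10 in the knockout, against 5.67, 5.51 and 5.38 in the control (difference −1.97 ± 0.25; limma adjusted p = 0.0021). Snapc4, the largest subunit, did not pass (−0.02 ± 0.18). The other subunit genes, Snapc1 and Snapc5, were named after their values were seen. Snapc1 fell (−1.28 ± 0.29; limma adjusted p = 0.014) but lost its call without control replicate 3 (limma adjusted p = 0.065). Snapc5 did not pass (0.06 ± 0.20). The TATA-binding protein Tbp stood at −1.43 ± 0.21. Maf1, the repressor of polymerase III, had 5.41, 5.30 and 6.11 in the knockout, against 3.83, 4.25 and 4.25 in the control (difference 1.49 ± 0.26; limma adjusted p = 0.0049). Brf2, the factor used at these external promoters, did not pass (−0.21 ± 0.21; limma adjusted p = 0.52). It lay below the array median of 2.98, at 2.26 in the knockout and 2.47 in the control. Bdp1, named after its values were seen, stood at −1.37 ± 0.26 (limma adjusted p = 0.0062). Snapc2, Snapc3, Tbp, Maf1 and Polr3f passed with any 1 array left out.

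**Figure D3:**
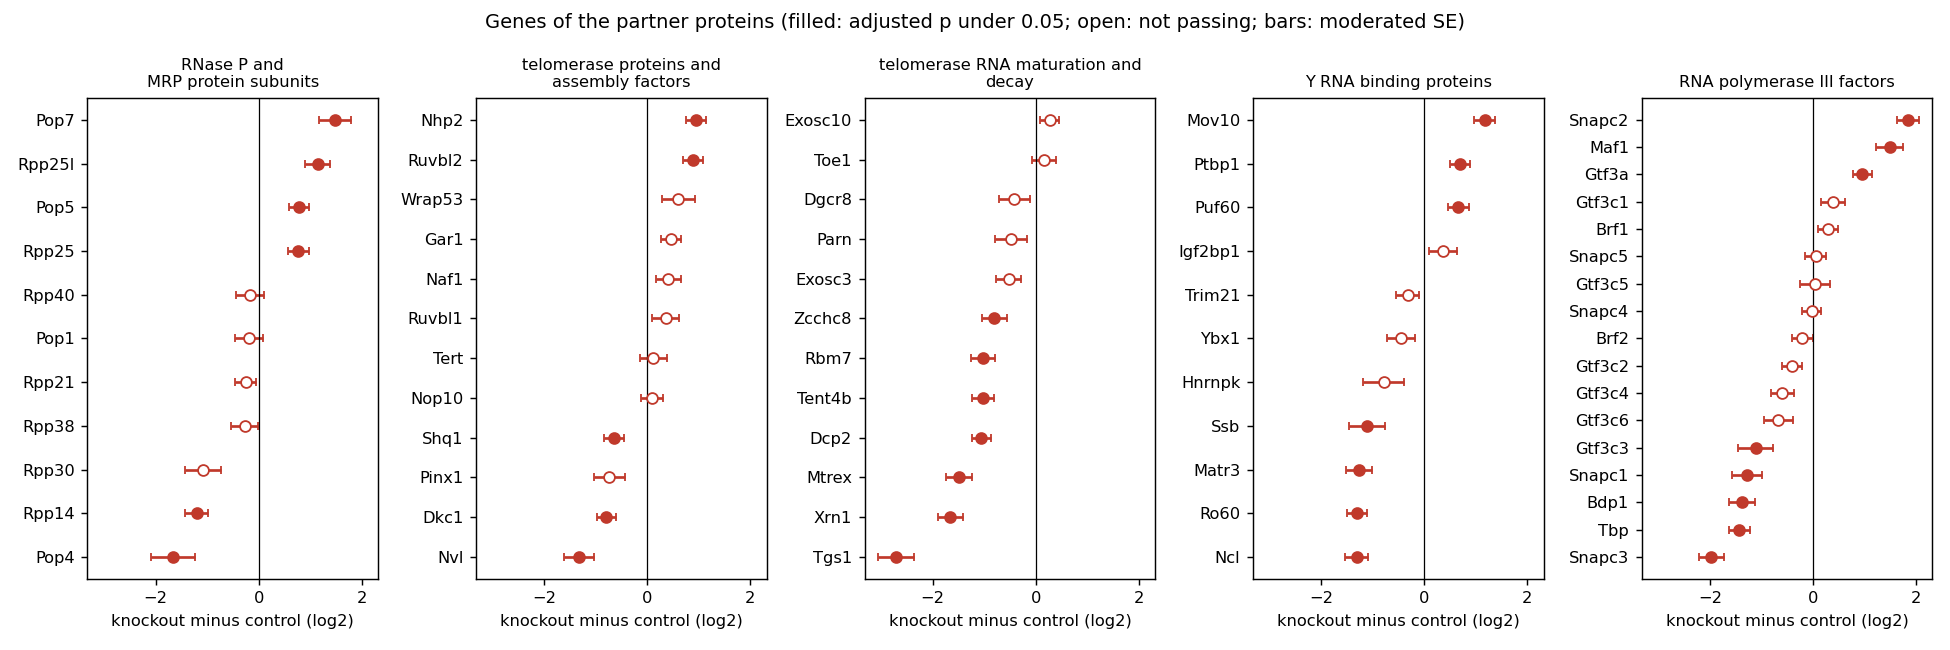
EC knockout minus control (log2) for genes of the partner proteins and of RNA polymerase III factors, with moderated SE as bars, filled points for adjusted p under 0.05 and open points otherwise. Points run from Tgs1 at −2.71 to Snapc2 at 1.85.

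Among 10 measured coding genes next to the member genes 0 rose and 2 fell, with a median of 0.00, against 12.5% higher and 13.0% lower over all genes, so that the count is near the background. It was 0 without control replicate 1 or 3, and 1 without knockout replicate 1 or control replicate 4. Parp2, 125 bases from Rpph1 and known to share its promoter region, had 2.30, 3.58 and 4.09 log2 units in knockout replicates 1, 3 and 4, against 4.24, 4.43 and 3.99 in control replicates 1, 3 and 4. Its groups overlapped (difference −0.90 ± 0.40; limma adjusted p = 0.14), and knockout replicate 1, the array with the highest Rpph1, had the lowest Parp2. That array was also the lowest for some other genes, such as Pop4 and Tgs1, and the highest for others, such as Pop7. A link between Rpph1 and Parp2 was not tested. Ccdc107, 280 bases from Rmrp, had 4.53, 4.14 and 4.18 in the knockout, against 3.84, 3.94 and 3.81 in the control. These groups did not overlap, yet the difference of 0.42 ± 0.19 did not pass (limma adjusted p = 0.15). On the other side, Ccnb1ip1 (11718 bases from Rpph1) was at −0.01 ± 0.26 and Sit1 (9075 bases from Rmrp) at 0.61 ± 0.31, and neither passed.

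Pdia4, 7960 bases from Rny1, was at −0.67 ± 0.27 and did not pass. The neighbours of Terc, BC107364 and Fcgr1, were at 0.15 ± 0.25 and 0.01 ± 0.26, and Rpia, the measured neighbour of Rprl1, was at 0.31 ± 0.18. Both neighbours of Rprl2 fell. Tbl1xr1, at 34775 bases, stood at −1.37 ± 0.38 and Naaladl2, at 1546495 bases, at −0.81 ± 0.22. Tbl1xr1 lost its call without knockout replicate 1 (limma adjusted p = 0.051) or control replicates 1, 3 or 4 (0.098, 0.088 and 0.075), and Naaladl2 without knockout replicate 3 (0.068) or control replicates 1 (0.10) or 3 (0.11).

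**Figure D4:**
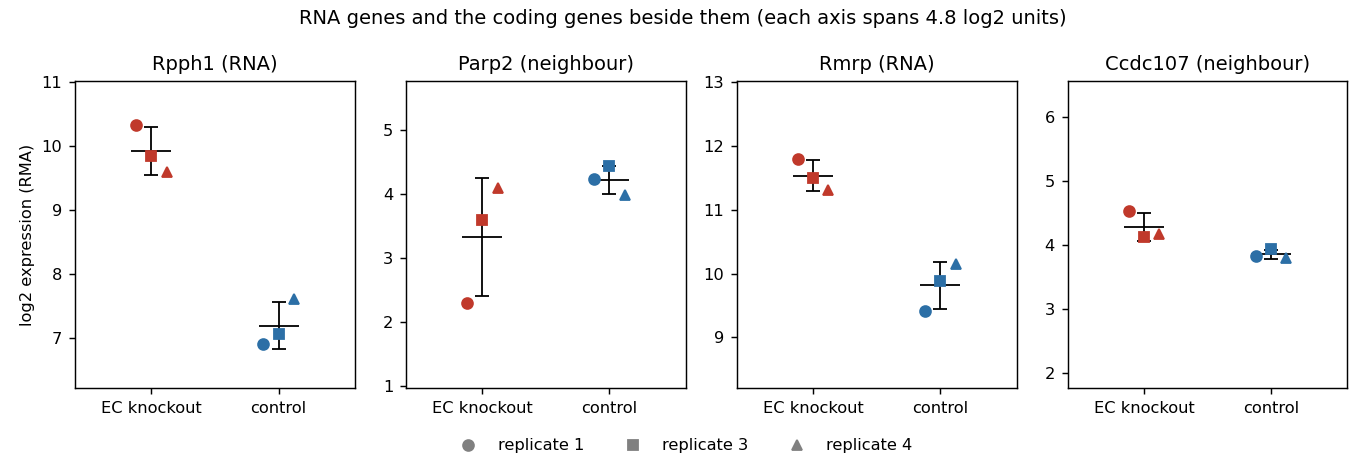
Log2 expression (RMA) of Rpph1, Parp2, Rmrp and Ccdc107 on each array, EC knockout at left and control at right, with means and SD of 3 arrays per group. Rpph1 and Rmrp differ by 2.73 and 1.71 log2 units, Parp2 by −0.90 with overlapping arrays and Ccdc107 by 0.42.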

How the data were processed

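Total RNA from perfused whole lung was labelled as biotinylated cRNA for single-colour Affymetrix arrays, per the labels' protocols. The authors deposited log2 values for each probe set; per the submitters' processing notes these are RMA values. The sources used here name neither its version nor how probe sets were defined. The 6 columns hold the same quantiles within 0.0018. Of 25428 probe sets 24705 had 1 symbol, 0 several and 723 none. The brighter probe set was kept for a repeated symbol, and 24672 genes matched RefSeq (GRCm38.p6) by Entrez ID, which gave coordinates, spans and promoter windows.

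Groups were compared by linear models without a filter (lmFit then eBayes of limma 3.58.1, under R 4.3.3), with Benjamini-Hochberg adjustment over 24704 genes and a threshold of 0.05. SEs are moderated. The procedure was tested on simulated data. Members and lists were chosen with earlier results of these data known. Named genes were the members, Nfat5, up to 4 genes of smallest p among the calls of each list, genes of central role, all neighbours and the 3 nearest profiles per member. Same-numbered arrays were not treated as pairs: their deviations from group means correlated at 0.06, −0.01 and 0.004. Alternatives covered filters, scaling, variance models, covariates, a replicate block, thresholds and single arrays left out. Precision is limited by 3 arrays per group.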

Additional observations from a re-analysis of the deposited data

How the results depend on the processing

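The median member difference of 1.82 stayed between 1.53 and 2.03 with 1 array left out. It fell to 0.31 with the snoRNA median added to the fit, where Rprl2 reversed to −0.95. The snoRNA median did not overlap between the groups, so that fit cannot separate it from the group difference. That covariate left 0 of 24704 genes and 0 of every list past the threshold with limma (3461 genes at an unadjusted p under 0.05). Xist was high on control replicate 1 alone, at 8.22 against 2.03 to 2.37 on the other arrays. Adding it as a covariate is therefore close to leaving out control replicate 1, which gave 3141 calls over all genes. Sex was not a term in any fit. With Xist as a covariate, calls numbered 2827 of all genes (6292 without it), 2 of RNase P and MRP subunits (6) and 1 of telomerase proteins (5). They also numbered 4 of telomerase RNA maturation (7), 4 of shelterin and CST (7), 3 of Y RNA binding proteins (7), 1 of polymerase III subunits (2) and 0 of the neighbours (2). At a threshold of 0.01 they numbered 2560 of all genes, 2 of RNase P and MRP subunits, 1 of telomerase proteins, 3 of shelterin and CST, 4 of Y RNA binding proteins, 1 of polymerase III subunits and 0 of the neighbours. The protein-only RNase P list went to 1 call from 0 with either filter on mean level, among protein-coding genes only, with array weights, with the replicate block and at a threshold of 0.1. The neighbours had 1 call among genes above the median level.

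Leaving out single arrays gave 2882 to 6155 calls over all genes, 2 to 7 for RNase P and MRP subunits, 0 to 1 for the protein-only list, 2 to 4 for telomerase proteins, 5 to 7 for maturation, 3 to 7 for shelterin and CST, 4 to 6 for Y RNA binding proteins, 1 to 3 for polymerase III subunits, 6 to 8 for its factors, 2 in each fit for other polymerase III transcripts and 0 to 3 for the neighbours. The replicate block gave 6082 calls over all genes and a member median of 1.82, and the call of Ssb was lost with it (limma adjusted p = 0.083). The same-numbered arrays share only a number. Members and polymerase III transcripts have no value among protein-coding genes. The cause of these differences was not tested. Without detection calls, changes in dim genes such as Terc and Rprl1 are limited by unknown background.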
